A study of Mus musculus with 2 samples.

Results

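Mir21a and Mir22 are a pair of highly abundant microRNA (miRNA) genes of the newborn mouse bladder, each lying inside an exon of a longer host gene. They were chosen by name, for their high level and their position in an exon, and they are 2 of the 1973 annotated miRNA genes in the count tables. The samples were 2 whole bladders of strain B6NCrl taken on postnatal day 0 from pups of the same pregnancy, called pup 1 and pup 2 after the labels, with sex not collected. There was 1 library per pup, 1 group and no treatment, genotype or other contrast, and a whole bladder mixes smooth muscle, connective tissue, urothelium, vessels, nerves and blood. Pup 1 gave 7460621 sense-strand gene counts and pup 2 gave 3636650. Levels are counts per 1000000 sense-strand gene counts (CPM), and errors are SDs over the pups (n = 2).

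A miRNA is cut from a hairpin in a longer primary transcript, and its seed, the bases near the 5′ end that pair with target messages, decides much of which messages it represses. miR-21 is known from injured, inflamed and fibrotic tissue and from tumours, where it represses Pdcd4 and Spry genes. Its primary transcript overlaps Vmp1, a gene for a membrane protein of autophagy. miR-22 is known from heart and skeletal muscle, where it acts in growth and hypertrophy. Its host, Mir22hg, is a non-coding RNA that serves as its primary transcript.

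The mature arms are shown because the seed separates the members from each other and miR-21a-5p from miR-21b, but not from miR-21c. Seeds, bases 2 to 8 counted from the 5′ end, are in capitals, and the sequences are those of RefSeq on GRCm38.p6.
miR-21a-5p: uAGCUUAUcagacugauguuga
miR-21a-3p: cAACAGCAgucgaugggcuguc
miR-21b: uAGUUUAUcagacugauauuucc
miR-21c: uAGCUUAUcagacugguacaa
miR-22-5p: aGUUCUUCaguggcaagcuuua
miR-22-3p: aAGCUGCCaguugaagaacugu

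The arms of Mir21a and Mir22 have 4 different seeds. Among 1738 mature sequences, only miR-21c has the seed of miR-21a-5p, and the seeds of miR-21a-3p, miR-22-5p and miR-22-3p occur in no other gene. Such single-gene seeds are common, at 84.5% of the 1398 distinct seeds in that table. The table matched 869 of the 1973 counted genes by symbol, so other relatives can be missing from it. The counts are per gene and do not separate the 5p from the 3p arm. As background, the 5p arm of miR-21 and the 3p arm of miR-22 are the ones usually described as active.

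miR-21b differs from miR-21a-5p by C4U, G18A, G21U and A22C, with positions counted from the 5′ end of miR-21a-5p and no gaps allowed. The first of these lies in the seed. miR-21c differs by A16G, G18A, U19C, U20A and G21A, all outside the seed. The lengths differ as well, at 22 bases for miR-21a-5p, 23 for miR-21b and 21 for miR-21c. The genes of miR-21b and miR-21c were almost without counts. Mir21b (chromosome 3, 29636744 to 29636851, plus strand) had 1 count in each pup, and Mir21c (chromosome 8, 128278148 to 128278225, minus strand) had 0 in both, which allows up to 0.402 CPM in pup 1 against 0.825 in pup 2. In these libraries, nearly all counts given to a gene of the Mir21 name were therefore those of Mir21a.

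The number of reads that a gene can lose to a near-identical copy matters here, because reads mapped to several places, 22.7% of reads in pup 1 and 24.8% in pup 2, are listed apart from the genes. The longest run that miR-21a-5p shared with the hairpin of any of 1004 other genes was 15 bases, in Mir21c. For miR-22-3p the longest was 9 bases and for miR-22-5p 10 bases. Each of the 4 arms was found whole only in transcripts of its own gene and of its host genes in GENCODE M21, and the rest of the genome was not searched. Of 308 detected genes with a sequence, 41 (13.3%) had an arm that lies whole in another hairpin. None of the 23 with a sequence among the 25 most abundant genes did. Genes with such an arm can lose reads in the counting, which makes them less likely to be detected or abundant. Both values are thus partly set by the counting and say little about the members. Detected means at least 1 CPM and 3 counts in both pups.

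Mir21a (ENSMUSG00000065455.1) lies on chromosome 11 at 86584067 to 86584158 of GRCm38, on the minus strand, over 92 bases. In GENCODE M21 it is inside exon 12 of Vmp1, the last exon of the transcript Vmp1-201, in the 3′ UTR. Mir22 (ENSMUSG00000065529.1) lies on the plus strand of the same chromosome at 75463716 to 75463810, over 95 bases. It is inside exon 2 of both annotated transcripts of Mir22hg, and the overlapping protein-coding gene Tlcd2 also contains it, in exon 2 of a transcript annotated as a processed transcript. The members are 11.1 Mb apart. Neither had another counted miRNA gene within 10 kb, so neither belongs to a polycistronic cluster in these tables. The nearest counted gene to Mir21a was Mir301, at 616.0 CPM in pup 1 against 629.2 in pup 2, and the nearest to Mir22 was Mir3971, with 0 counts in both pups.

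The first question is what share of the miRNA gene counts each member made up. Mir21a had 228573 counts in pup 1, or 30637 CPM (exact 95% binomial interval 30514 to 30761), and 115585 counts in pup 2, or 31783 CPM (31603 to 31964). Its share of the counts was 3.06% in pup 1 and 3.18% in pup 2. The pups were close to each other, and Mir21a took rank 3 in both. Every rank given here leaves out reads mapped to several places, so miRNAs with near-identical gene copies can rank too low. Mir22 had 159998 counts in pup 1, or 21446 CPM (21342 to 21550), and 62969 counts in pup 2, or 17315 CPM (17181 to 17450). Its share was 2.14% in pup 1 and 1.73% in pup 2. Mir22 was lower in pup 2, and it took rank 7 in pup 1 and rank 11 in pup 2. Without molecular identifiers in the reads, these intervals cover the error of counting and nothing else.

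Together the members held 5.21% of the counts in pup 1 and 4.91% in pup 2, a mean of 5.06% ± 0.211 (SD, n = 2). The most abundant gene was Mir143, a miRNA of smooth muscle. Among the counts that were not Mir143, Mir21a and Mir22 together held 11.0% in pup 1 and 10.3% in pup 2. Mir143 had 17.2 times the counts of Mir21a in pup 1 and 16.5 times in pup 2. It had 24.5 times those of Mir22 in pup 1 and 30.2 times in pup 2. In whole tissue, fewer cells of a type and less RNA per cell cannot be told apart, and all of these values are shares of a fixed total.

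**Figure D1:**
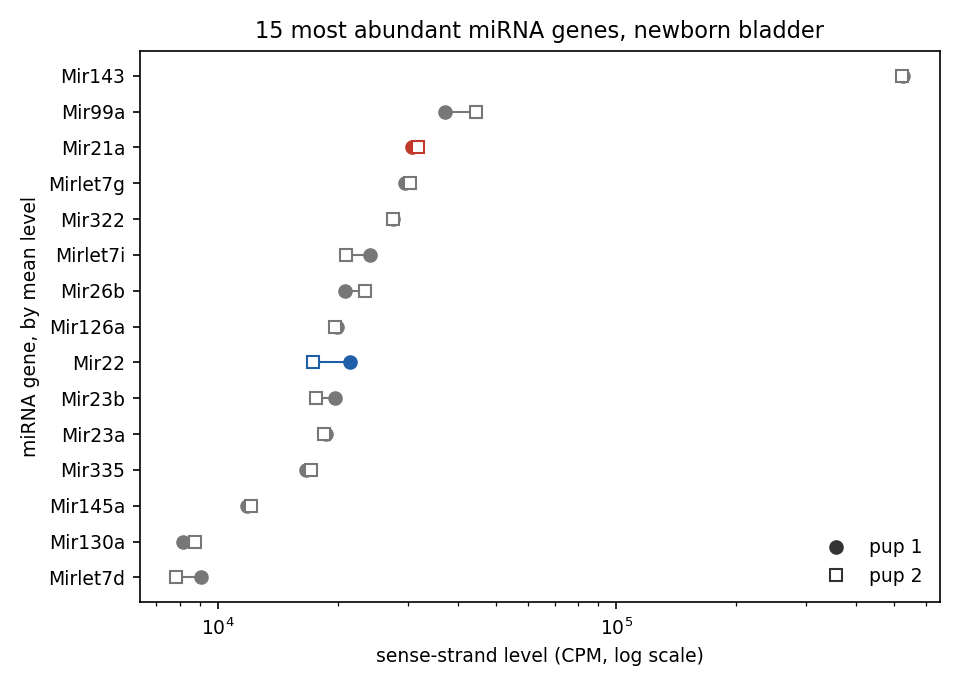
Levels of the 15 most abundant miRNA genes in each pup, in CPM on a log scale, with filled circles for pup 1, open squares for pup 2 and a line between them. Mir21a (red) sits at 30637 and 31783 CPM with its symbols touching, and Mir22 (blue) is spread from 21446 CPM in pup 1 to 17315 CPM in pup 2, across the values of its neighbours.

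The second question is which genes lay beside the members in the order of levels. A mature miRNA is read whole, so CPM were compared between genes without dividing by length. How evenly the library preparation captured different miRNAs was not measured, so comparisons between genes are of counts and not of molecules. Mir99a, at 37088 CPM in pup 1 against 44327 in pup 2, was above Mir21a in both pups. Mirlet7g, at 29396 and 30261 CPM, was below it in both, but the means of Mir21a (31210 ± 810.4 CPM) and Mirlet7g (29828 ± 612.2 CPM) were apart by less than the sum of their SDs. Mir322, at 27543 and 27459 CPM, and Mirlet7i, at 24060 and 20940 CPM, were also below Mir21a in both pups. The place of Mir21a under Mir99a and over Mirlet7g was thus the same in both libraries.

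The place of Mir22 was not. Mirlet7i was above Mir22 in both pups and Mir335, at 16585 and 17161 CPM, was below it in both. Mir26b, Mir126a, Mir23b and Mir23a changed sides. In pup 1, Mir22 was above all 4 of them, which ranged from 18618 to 20777 CPM. In pup 2 it was below all 4, which ranged from 17639 to 23323 CPM. These genes and Mir22 do not differ beyond the spread of Mir22 between the pups, 19380 ± 2921 CPM.

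By the distance of log2(CPM + 1) over the 2 libraries, the genes most like Mir21a were Mirlet7g (0.09), Mir322 (0.26) and Mir99a (0.55). Those most like Mir22 were Mir23b (0.13), Mir126a (0.21) and Mir23a (0.22). All 3 of the latter had fewer CPM in pup 2, as Mir22 did, but by less: Mir23b was at 19661 CPM in pup 1 against 17639 in pup 2, Mir126a at 19915 against 19646 CPM and Mir23a at 18618 against 18410 CPM. With TMM scaling the log2 ratios of Mir126a and Mir23a were 0.0043 and 0.0077. With 2 libraries this likeness is nearly a likeness of level.

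The third question is how the members varied between the littermates. With 1 library per pup neither side has a replicate, so no p-value is given, and ratios between pups are descriptions of these libraries. Library sizes were scaled by TMM. Of the 362 genes with at least 10 counts over both pups, 63 were at least 1.5-fold apart in either direction, or 17.4%: 41 (11.3%) higher in pup 2 and 22 (6.08%) higher in pup 1. Neither member was among them, and neither was any of the 68 genes with a mean of at least 1000 CPM. The log2 ratio of pup 2 over pup 1 was 0.08 for Mir21a (counting SE 0.0052), a 1.05-fold difference. For Mir22 it was -0.28 (counting SE 0.0068), so Mir22 was 1.22-fold higher in pup 1. Counting error alone is small beside both values, but it does not measure the spread between animals or between library preparations, which cannot be told apart here.

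Set beside the other abundant genes, Mir21a was ordinary and Mir22 was at the edge. The median absolute log2 ratio of the 68 genes was 0.10, and 43 of them, Mir21a included, were at least as far from 0 as Mir21a. Mir22 had the lowest ratio of the 68, and since scaling shifts every gene alike, that place does not depend on the scaling. Mir351 (-0.276) and Mir28a (-0.270) came next. The gap between Mir22 and Mir351 (counting SE 0.0130) was within counting error. In either direction and with TMM scaling, 3 other genes were at least as far from 0 as Mir22, all higher in pup 2. They were Mir16-1 (0.47), Mir93 (0.45) and Mir140 (0.29). Mir140 was so near to Mir22 that its inclusion depends on the scaling. These genes, Mir351 and Mir28a were named after their values were seen.

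**Figure D2:**
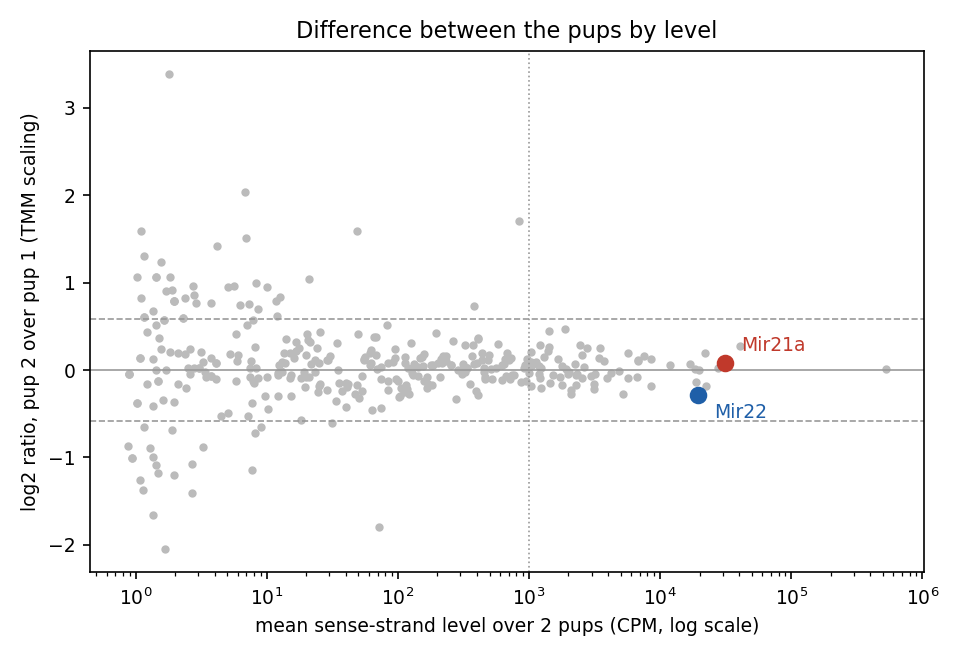
Log2 ratio of pup 2 over pup 1 against mean CPM (log scale) for 362 miRNA genes, each a grey point. The solid line marks no difference, the dashed lines 1.5-fold and the dotted line 1000 CPM; to the right of it Mir22 (blue, -0.28) is the lowest point and Mir21a (red, 0.08) lies inside the band of the others.

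The same divergence appears inside each library, where no scaling enters. Mir21a had 1.43 times the counts of Mir22 in pup 1 (95% counting interval 1.42 to 1.44) and 1.84 times in pup 2 (1.82 to 1.85). The mean was 1.63 ± 0.288 (SD, n = 2). Mir21a was the higher of the pair in both pups, and the excess was larger in pup 2. Per base of the annotated gene the values were 1.48 in pup 1 and 1.90 in pup 2, so hairpin length does not alter the order.

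Markers of other cell types are given beside this divergence, as sums of CPM in pup 1 and pup 2. Blood cell markers summed to 1201 and 2357 CPM, with 6 of 6 measured members detected. Mir223, a miRNA of myeloid cells, at 396.2 and 1274 CPM, made up most of that difference. Mir451a, Mir144, Mir486 and Mir150 were also higher in pup 2, the last 2 only slightly. Mir155 was lower there, at 77.3 and 70.7 CPM. Mesenchyme markers, with 5 of 5 detected, summed to 4634 and 4349 CPM, epithelium markers, with 7 of 7, to 16684 and 16284 CPM, and smooth muscle markers, with 2 of 3, to 538292 and 535291 CPM. Mir126a, the marker of endothelium, was at 19915 and 19646 CPM. Striated muscle markers summed to 107.9 and 93.8 CPM, with 4 of 8 detected and Mir133a-2 at 0 in both pups. Of the neuron markers 1 of 6 was detected and the other 5 were at 0. The Mir1a, Mir133a, Mir124a and Mir9 genes have near-identical copies, so their reads can be missing. The liver marker, Mir122, was at 111.8 and 31.6 CPM (log2 ratio -1.79), higher in pup 1 as Mir22 was, while the sum of the blood cell markers was higher in pup 2. The part of either in the difference was not tested.

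The fourth question is how the members compare with other miRNA genes in the same kind of position. Of the 1973 genes, 343 overlapped an exon of a longer gene on the same strand in GENCODE M21, 720 lay in introns and 831 outside such genes, and 79 could not be placed. Among the exon genes 90 were detected (26.2%), among the intron genes 139 (19.3%) and among those outside 106 (12.8%), beside 17.0% of all genes. The medians of the detected genes were close, at 69.8, 82.2 and 71.9 CPM. Exon genes summed to 15.1% of all counts, and the members made up 33.6% of that sum. The members were chosen for such a place, so these values describe where they stand and support nothing about exons.

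By mean level, Mir21a was the most abundant of the exon genes and Mir22 the fourth. Between them were Mirlet7i, in the non-coding D630033A02Rik, and Mir126a, an endothelial miRNA in Egfl7, with means of 22500 and 19780 CPM. Next came Mirlet7d at 8459 CPM, so that Mir21a had 3.69 times its level. Of the 10 most abundant genes of all by mean level, 4 were exon genes: Mir21a, Mirlet7i, Mir126a and Mir22. The place of Mir22 differed between the pups. In pup 1 it was above Mir126a, at 21446 against 19915 CPM, and in pup 2 it took rank 11 among all genes.

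The 3′ UTR is a rarer place. It held 47 genes, 11 of them detected, and Mir21a alone made up 90.1% of their summed level. Mir27b at 2266 ± 82.6 CPM and Mir324, in Dvl2, at 1127 ± 34.8 CPM came next, 13.8 and 27.7 times below Mir21a. Mir331, in Vezt, followed at 23.5 ± 0.998 CPM. The median of the 11 detected genes was 6.84 CPM. Mir21a was chosen for its high level, so its place above that median is a description and supports nothing about 3′ UTRs.

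**Figure D3:**
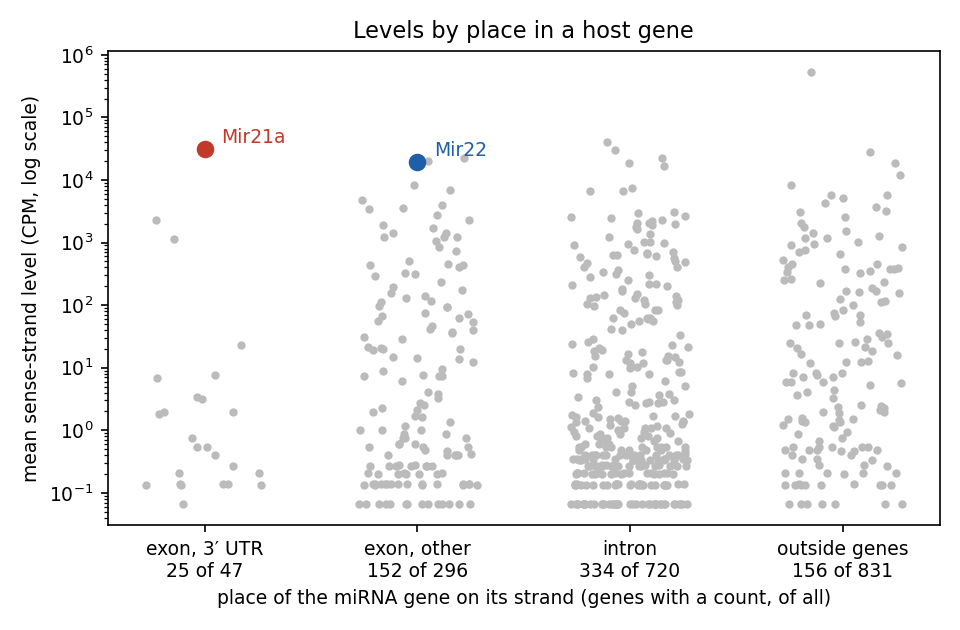
Mean level in CPM (log scale) of each miRNA gene with at least 1 count, by its place on its strand, with the number of such genes under each column (25 of 47 genes in a 3′ UTR, 152 of 296 in another exon, 334 of 720 in introns and 156 of 831 outside genes). Mir21a (red) stands above all other genes of a 3′ UTR, and Mir22 (blue) is near the top of the other exon genes.

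The fifth question is whether counts fell on the strand opposite the members, a measure that did not enter their choice. Mir21a had 1 opposite-strand count in pup 1 and 0 in pup 2, against 344158 sense-strand counts in all. Mir22 had 0 in both pups, which allows up to 0.00188% of its counts in pup 1 and 0.00476% in pup 2. Over all genes the opposite strand held 3.17% of gene counts in pup 1 and 3.18% in pup 2. A clean strand was common among deeply counted genes, since 12 of the 14 genes with at least 100000 counts had at most 1 opposite-strand count.

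The hairpins were folded to see what else the members share. By minimum free energy, the Mir21a hairpin was at -46.2 kcal/mol, or -0.502 per base, and the Mir22 hairpin at -41.9 kcal/mol, or -0.441 per base. The median of 294 detected hairpins was -0.434 per base, and 18.7% of them were more stable per base than Mir21a and 44.2% than Mir22. G and C made up 45.7% of the Mir21a hairpin and 55.8% of the Mir22 hairpin, on either side of the median of 49.7%. The members thus had no composition in common that set both apart.

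The sixth question is where the members stand among miRNAs of the pathways they are known for. The list of miRNAs with a known part in fibrosis or TGF-beta signalling held 17 genes, of which 14 were detected. Mir21a, described as raising fibrosis, made up 81.2% of its sum of 38003 CPM in pup 1 against 38838 in pup 2. Mir214, a miRNA of mesenchyme, and Mir200b, an epithelial miRNA that restrains Zeb factors, came next with means of 3954 ± 222.8 and 1998 ± 70.8 CPM. Mir29a, which represses collagen messages, was at 340.6 CPM in pup 1 against 407.5 in pup 2, and Mir21a had 83.4 times its mean level. Mir21a was above Mir214 by 7.89-fold on average. None of the 14 genes was 1.5-fold apart between the pups, beside 17.4% of all 362 genes. That share rests largely on low counts, since it fell to 12 of the 248 genes with at least 100 counts over both pups. The median log2 ratio of the 14 genes was 0.08, beside 0.03 over all 362 genes. An arm of 7 of the 15 genes with a sequence, the Mir29b, Mir30c and Mir199 genes, lies whole in another hairpin, so the share of Mir21a in this sum can be too high.

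**Figure D4:**
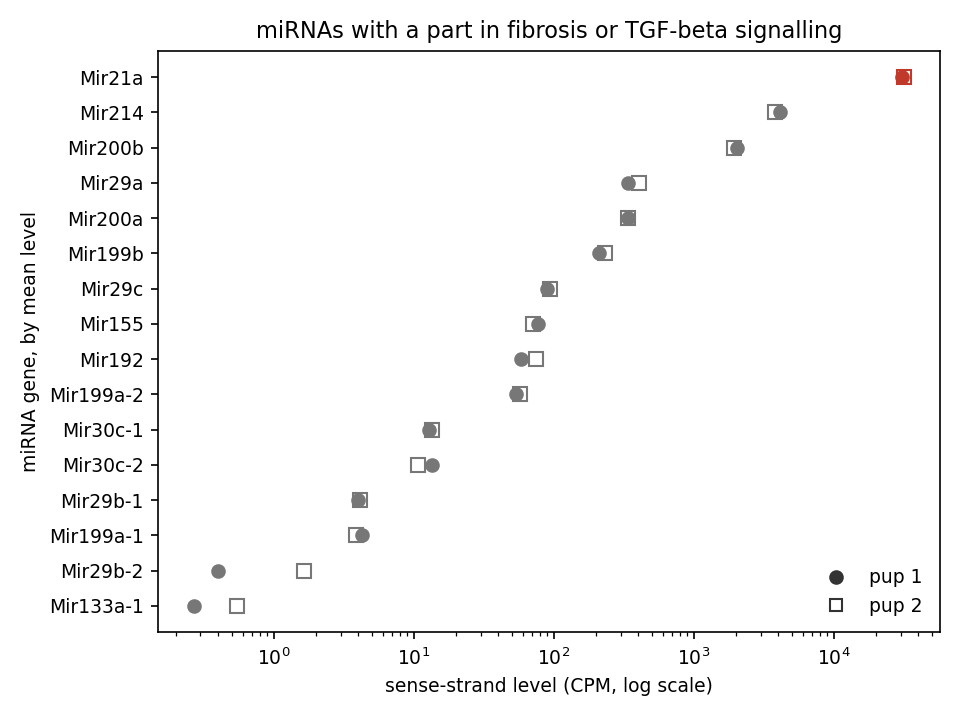
Levels of the miRNA genes of the fibrosis and TGF-beta list that had a count, in CPM on a log scale, with filled circles for pup 1 and open squares for pup 2; Mir133a-2, at 0 in both pups, is not drawn. Mir21a (red) is the highest at 30637 and 31783 CPM, followed by Mir214 at 4112 and 3797 CPM, and the lowest drawn is Mir133a-1 at 0.268 and 0.550 CPM.

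Mir22 was also set beside miRNAs of muscle growth and cardiac hypertrophy. Of 15 measured genes 11 were detected, and Mir22 made up 45.9% of their sum of 44478 CPM in pup 1 against 40047 in pup 2. Mir23a was at 18618 and 18410 CPM, Mir27b at 2324 and 2207 CPM and Mir195a at 1782 and 1815 CPM. The counts of genes specific to striated muscle were far lower, but the Mir1a and Mir133a genes have near-identical copies and can be measured too low. Mir208b, from an intron of the heart and slow muscle gene Myh7, was at 73.3 and 52.5 CPM, and Mir22 had 308.0 times its mean level. Of 11 genes with enough counts 2 were past 1.5-fold, a share near the 17.4% of all genes. They were Mir206 (11.1 and 6.87 CPM) and Mir499 (3.62 and 10.2 CPM), both named after their values were seen and both low.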

How the data were processed

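MicroRNA-seq libraries of 2 newborn bladders were analysed. The authors deposited 1 table per library of whole-number counts per miRNA gene, not normalized and not pooled. The build was mm10 and the annotation GENCODE M4, per the file headers in the deposited README text; aligner, counter and filters: not given in the sources used here. Columns are unnamed. Because 1 column was the sum of the remaining columns for every gene, it was taken as both strands, the fuller of the others as the sense strand and the last as the opposite strand. Totals of unassigned reads stayed out of library sizes; unmapped reads made up 8.19% (pup 1) and 7.32% (pup 2). Symbols, positions and hosts came from GENCODE M21 on GRCm38 for 1894 of 1973 genes; the other 79 held 1 count. Mature sequences came from RefSeq.

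Levels are sense-strand counts per 1000000 sense-strand gene counts. Ratios between pups used TMM scaling in edgeR 4.0.16 (R 4.3.3) over genes that had at least 10 counts in both pups together and a prior count of 0.5; no test was made, since 1 library per pup leaves no replicate. On counts simulated with counting error alone, 94.1% of 372 log2 ratios of pup 2 over pup 1 lay within their counting interval. The median shift from the known values was removed first. This checks the calculation only and does not cover spread between animals or preparations. Hairpins were folded with ViennaRNA 2.7.2, and Python 3.11.15 with scipy 1.17.1 gave exact binomial intervals. The members and lists were chosen with earlier results of these data known, and 1 list is not reported here. Named genes were the members, genes sharing their seeds or name, 3 neighbours on each side in the order of levels, the 3 nearest genes by distance, and the 4 most abundant genes of each list and of the exon genes. Others are marked or follow as members of described lists or positions. The alternatives were other totals, both strands, DESeq2 1.42.0 size factors, other count minimums, prior counts and folds, coding hosts only, copies added, and each pup left out.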

Additional observations from a re-analysis of the deposited data

How the results depend on the processing

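With all listed reads in the total, the levels were 20394 CPM for Mir21a, 12677 CPM for Mir22 and 33072 CPM for their sum. With Mir143 left out of the total they were 65676, 40800.0 and 106476 CPM. With both strands counted, Mir21a was at 30218 CPM. Leaving out each pup gave 30637 to 31783 CPM for Mir21a, 17315 to 21446 CPM for Mir22, 49098 to 52083 CPM for the sum and 1.43 to 1.84 for Mir21a over Mir22. The log2 ratio of pup 2 over pup 1 was 0.053 for Mir21a and -0.309 for Mir22 with total count scaling, 0.0431 and -0.319 with DESeq2 size factors, 0.0144 and -0.347 with no count filter, and 0.0558 and -0.306 with a minimum of 100 counts. Mir21a thus stayed slightly higher and Mir22 lower in pup 2 in all 7 settings run. Genes at least 1.5-fold apart numbered 12 of 248 with a minimum of 100 counts and 318 of 668 with no filter. In the main setting 27 were at least 2-fold apart. Among the 318 genes, 145 were higher in pup 2, against 41 of 63 in the main setting. Detected exon genes numbered 37 of 209 with coding hosts only, or 17.7%, near the 17.0% of all genes. They numbered 93 to 96 with a pup left out. No paired analysis was possible because the 2 libraries form 1 group. For both members the difference between the 2 libraries exceeded the counting error that depth sets. The size of the small Mir21a difference also depended on scaling and count filter, with log2 ratios from 0.0144 to 0.0769 over the settings. What part of either difference lies between animals and what part between preparations cannot be told apart.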

Other observations

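Both members lie on chromosome 11, which carried 117 of the 1973 counted miRNA genes, 25 of them detected. These genes summed to 6.53% of all counts, and Mir21a and Mir22 made up 77.4% of that sum. The next genes there were Mir10a, a Hox-cluster miRNA, at 5326 CPM in pup 1 against 5976 in pup 2, Mir744, in Map2k4, at 3321 and 2917 CPM, and Mir195a at 1782 and 1815 CPM, all 3 named after their values were seen. The log2 ratio of pup 2 over pup 1 was 0.19 for Mir10a, -0.16 for Mir744 and 0.05 for Mir195a, so genes of that chromosome lay on both sides of 0, as the members did.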
